A study of Mus musculus with 2 samples.

Results

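Endothelial cells carrying transcripts of Selp and Ackr1, marker genes of post-capillary venules, were described in single-cell RNA libraries of mouse cornea and limbus. A member was a barcode with at least 500 UMIs (counted RNA molecules), at most 20% mitochondrial UMIs and less than 3000 CPM (UMIs of a gene per 1000000 UMIs) of Krt5 plus Krt14. It also had to carry at least 2 of the 6 endothelial genes Cdh5, Pecam1, Emcn, Kdr, Egfl7 and Plvap with at least 3 UMIs in sum, and at least 3 UMIs of Selp plus Ackr1. Members were thus selected on the measured counts of these genes. The rule found 121 members among 16889 barcodes: 22 of 7490 in the uninjured library and 99 of 9399 in the injured library. The endothelial cells of the same gate with fewer than 3 UMIs of Selp plus Ackr1, called low cells below, numbered 23 and 123.

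Both libraries came from wild-type mice: 1 from uninjured eyes and 1 from eyes injured with NaOH. The labels name cornea and limbus as the tissue. The series text counts 1 mouse per condition, while the protocol speaks of corneas placed together in 1 tube for digestion with liberase and trypsin, and no file maps cells to animals. Neither the time after injury nor the age of the mice is stated in the sources used here. With 1 library per condition there is no replicate check of any difference below, so no test was run, and the difference between conditions and the difference between these libraries cannot be told apart.

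Post-capillary venules are the vessels through which leukocytes leave the blood. Their endothelium stores P-selectin (Selp) in Weibel-Palade bodies together with von Willebrand factor, makes E-selectin (Sele) when stimulated by inflammatory cytokines, and carries Ackr1, an atypical receptor that binds many inflammatory chemokines without classical signalling. The healthy cornea itself has no blood vessels. The limbus at its rim holds a ring of arterioles, capillaries and venules, from which new vessels grow toward an alkali burn.

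The libraries held 85457541 (uninjured) and 108863350 (injured) UMIs. Members had a median of 3594 UMIs (850 to 8946) in the uninjured library and 5396 (1226 to 43565) in the injured library, and low cells 2726 and 10013. In the injured library the low cells were therefore the deeper group. The libraries shared 15 barcodes, none of them among the endothelial cells. Members were 0.307% of cells passing the quality limits in the uninjured library (exact Clopper-Pearson 95% interval 0.193 to 0.465) and 1.10% in the injured library (0.894 to 1.34). Among endothelial cells alone the shares were 48.9% (33.7 to 64.2) and 44.6% (37.9 to 51.4), whose intervals overlap. All intervals given here cover counting error only, and neither digestion yield nor mouse-to-mouse spread enters them.

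Every member carried Selp, and Ackr1 was detected in 14 of 22 and in 62 of 99. These are the genes of the rule, so their values are a description. Selp per injured member ran from 108 through a median of 2618 to 13548 CPM, and per uninjured member from 477 through 4810 to 19171 CPM. Over the summed cells, Selp stood at 2632 CPM in injured and 6136 CPM in uninjured members, against 20.1 and 24.0 CPM in the low cells. Ackr1 stood at 474 and 1133 CPM. Cells exactly at the threshold were few: 5 injured and 3 uninjured members had exactly 3 UMIs, while 11 injured and 0 uninjured low cells had 2. Members with 3 to 9 UMIs numbered 33 of 99 in the injured and 9 of 22 in the uninjured library. Most low cells had no UMI of either gene (96 of 123 and 20 of 23), and 66 injured and 13 uninjured members had 10 or more. Members held 83.6% of all Selp UMIs of the injured library and 87.8% of those of the uninjured library.

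Of the gate genes, Cdh5 and Egfl7 stood near the same level in members and low cells, and Plvap and Emcn stood higher in members. In the injured library Cdh5, the endothelial cadherin, was at 512 CPM in members and 546 CPM in low cells, and Egfl7 was at 517 and 594 CPM. Plvap, the diaphragm protein of fenestrated and venular vessels, was at 1667 and 787 CPM, and the sialomucin Emcn at 864 and 373 CPM. These genes served the gate and were given no ratio call.

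Other cell types differed in how far they entered the members and the low cells. Lymphatic markers were near 0 in injured members: Lyve1, Ccl21a, Mmrn1 and Reln had no UMI, and the 10 markers summed to 73.3 CPM against 1532 CPM in low cells. Stromal collagen and proteoglycan markers summed to 282 CPM in injured members and 11485 CPM in injured low cells, and to 278 and 30721 CPM in the uninjured library. Of the low cells, 67 of 123 injured and 8 of 23 uninjured carried at least 3 lymphatic, stromal or macrophage markers, while 17 of 99 and 2 of 22 members did, through stromal markers in every case. The low cells are thus a mixture, and many ratios below are given also against the 56 injured low cells without such markers, called marker-free low cells. This group was formed after the data were seen, and its part in a result is the value printed beside it. A ratio with no such value beside it is against all low cells only. The members were not filtered in this way, so the 17 injured members with at least 3 stromal markers stayed in.

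Platelets also store P-selectin, and their markers were low in the members: Gp9, Gp1ba, Gp1bb, Gp5, Treml1 and Tubb1 had no UMI in injured members, and the list summed to 57.5 CPM. Of its 9 markers 3 had enough UMIs for a ratio to injured low cells, and 1 was higher and 2 lower in members. Neutrophil markers summed to 218 CPM in injured members, with 1 cell at 25115 CPM and 3 cells with at least 3 markers, and all 8 were at 0 in uninjured members. The 3 neutrophil markers with enough UMIs for a ratio to injured low cells were all higher in injured members. In uninjured members, mural cell markers summed to 1828 CPM, with 2 cells carrying at least 3 of them, and epithelial markers to 3453 CPM. Krt12, the keratin of corneal epithelium, had a UMI in all 22 uninjured members and in 0 injured members.

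A gene was counted as higher or lower in a comparison where the ratio of its summed CPM was at least 2 and the 95% counting interval of that ratio excluded 1. At least 20 UMIs over both groups were required. In the injured library 8502 genes were measured between members and low cells, of which 377 (4.43%) were higher and 821 (9.66%) lower in members. Their median log2 ratio was -0.18. Against marker-free low cells 260 of 5739 genes (4.53%) were higher and 218 (3.8%) lower. In the uninjured library 131 of 1379 genes (9.5%) were higher and 134 (9.72%) lower, with a median of 0.09. Of 1374 genes measured in both libraries, 119 were higher in injured and 129 in uninjured members, and 61 were higher in both, which is 51.3% of the first and 47.3% of the second. The lists of genes by role that follow were chosen with earlier results of these data known, so a list's count is set beside the share over all genes and tests nothing.

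Adhesion molecules of leukocyte capture were led by E-selectin. Sele ran from 0 through 511 to 6525 CPM per injured member, with a UMI in 76 of 99 cells, against 13 of 123 low cells. Summed, it was at 625 CPM (95% interval 568 to 687) in members and 17.8 CPM (12.1 to 25.3) in low cells, a ratio of 35.1 (24.4 to 52.3), and of 10.8 (7.11 to 17.2) against marker-free low cells. Among uninjured cells Sele ran from 0 through 1369 to 7787 CPM per member with a UMI in 19 of 22, and was at 2224 CPM against 96.1 CPM, a ratio of 23.1 (11.5 to 54.3). Over the alternative settings the log2 ratio of Sele ran from 3.43 to 7.12 in the injured and from 3.58 to 5.82 in the uninjured library. Members and low cells overlapped at 0 in both libraries, and the high cells were almost all members. After each cell was thinned to 2000 UMIs, Sele was detected in 56.5% of injured and 65% of uninjured members, and in 2.6% and 11.8% of low cells. Outside the endothelial gate, 0.307% of cells of the injured library and 0.084% of those of the uninjured library had a Sele UMI. Members held 84.6% of the Sele UMIs of each library.

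**Figure D1:**
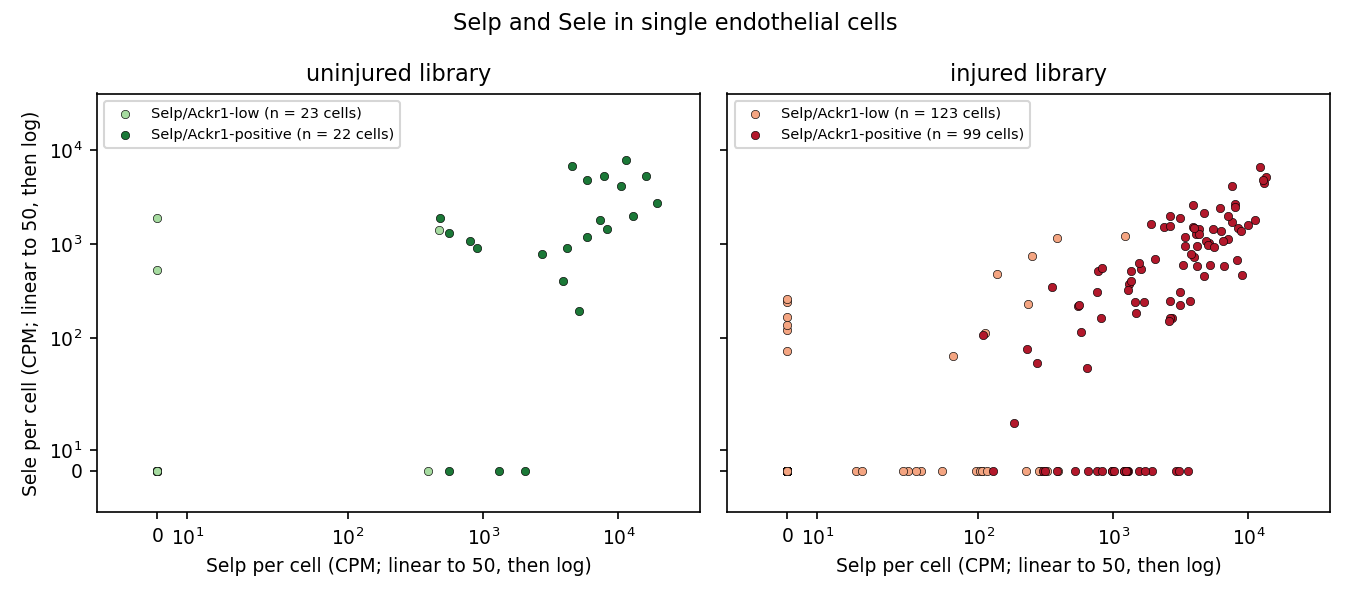
Selp (x axis) and Sele (y axis) in each endothelial cell of the uninjured and injured libraries, in CPM on axes that are linear to 50 and logarithmic above; points are single cells, coloured as members or low cells. Sele reaches 6525 CPM among injured and 7787 CPM among uninjured members, while most low cells lie at 0 on both axes.

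Icam1, the ligand of leukocyte integrins that serves firm arrest, ran from 0 through 491 to 3226 CPM per injured member. It was at 579 CPM in members and 109 CPM in low cells, a ratio of 5.31 (4.46 to 6.34), and in the uninjured library at 1037 against 144 CPM, a ratio of 7.19 (3.94 to 14.4) whose log2 value was 2.04 against the 15 marker-free uninjured low cells. Outside the endothelial gate, 50.6% of cells of the injured library and 27.1% of those of the uninjured library had an Icam1 UMI. Vcam1, the ligand of integrin alpha4beta1, was at 249 and 126 CPM in injured members and low cells, a ratio of 1.98 that did not reach the limit and passed it under 8 of 11 alternative settings. Uninjured members and low cells had Vcam1 at 118 and 120 CPM.

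Glycam1, a mucin ligand of L-selectin known from high endothelial venules, had 59 UMIs in 12 injured members and 9 in 3 low cells, a ratio of 16.4 (8.08 to 37.6), with up to 6077 CPM in 1 cell. Madcam1 and Chst4, also genes of high endothelial venules, had no UMI in any endothelial cell. Of the 25 genes of the adhesion list, 20 were measured in the injured library, 7 were higher and 0 lower in members, with a median log2 ratio of 0.34. Jam2, Cd200 and Chst2, with ratios of 2.48, 2.08 and 2.07, were among the 7. Against marker-free low cells Jam2 was at a ratio of 1.16 and Cd200 at 1.34, neither counted as higher, and the list had 5 higher and 2 lower genes of 19. Among uninjured cells 3 of 12 measured genes were higher (Sele, Icam1 and Cd151) and 1 was lower (Podxl).

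Of 20 venous genes, 19 were measured in the injured library, 10 were higher and 0 lower in members, and the median log2 ratio was 1.20. The list was chosen with earlier results of these data known, so this count does not test the venular label. Vwf, the platelet-binding protein of Weibel-Palade bodies, ran from 0 through 485 to 2447 CPM per injured member and was at 447 CPM (399 to 500) over all members and 14.9 CPM (9.75 to 21.9) over low cells. That is a ratio of 29.9 (20.05 to 46.6), and of 16.1 (8.90 to 32.7) against marker-free low cells. Uninjured members and low cells had Vwf at 759 and 192 CPM, a ratio of 3.95 (2.27 to 7.28), with log2 values of 1.18 to 4.42 over the alternative settings. Lrg1, a secreted glycoprotein that modulates TGF-beta signalling in vessels, was at 779 and 241 CPM in the injured library (ratio 3.23, 2.84 to 3.68) and at 748 and 204 CPM in the uninjured library (ratio 3.66, 2.13 to 6.64).

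Nr2f2, the transcription factor COUP-TFII that specifies venous fate, was at 129 CPM in injured members and 56.3 CPM in low cells, a ratio of 2.30 (1.71 to 3.09). Its log2 ratio was 0.89 with each cell weighted alike, which is under the limit, and its ratio was 4.67 against marker-free low cells. Against marker-free low cells 13 of 18 venous genes were higher and 0 lower, with a median of 1.31, and in the uninjured library 4 of 8 were higher and 0 lower. The higher genes included Tll1, a secreted protease that processes matrix proteins, at 11.01, Bst1 at 4.36, Ptgs1, the constitutive cyclooxygenase, at 2.88, Cpe at 2.83 and Il1r1, the interleukin-1 receptor, at 2.69. Marker-free low cells gave 4.19 for Tll1, 2.28 for Bst1 and 6.47 for Il1r1. Ephb4, the ephrin receptor of veins, at a ratio of 1.19, and Aplnr, the apelin receptor, at 1.05, did not pass the limit.

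**Figure D2:**
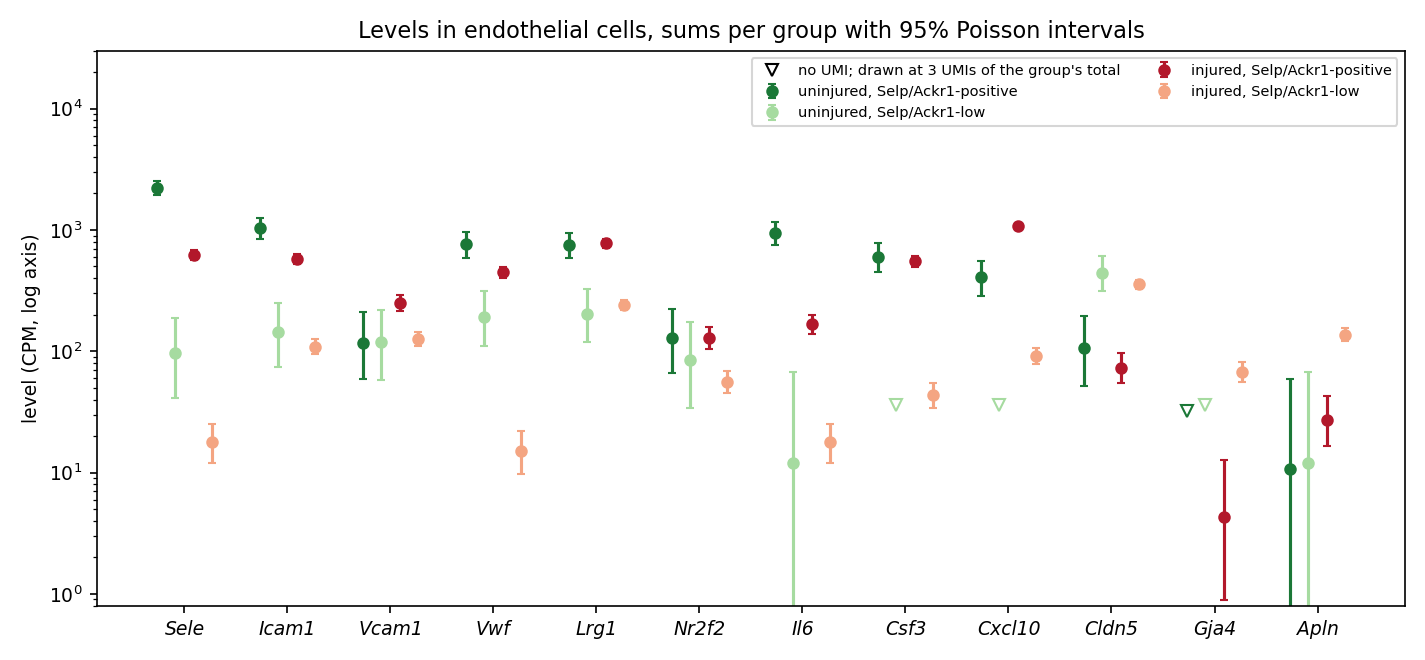
Summed CPM (logarithmic axis) of 12 genes in members and low cells of the uninjured and injured libraries, with 95% Poisson intervals as bars; an open triangle marks a group with no UMI, drawn at 3 UMIs. Sele, Vwf, Lrg1 and Csf3 are higher in members in both libraries, and Cldn5 is higher in low cells.

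Genes of other vessel segments were lower in injured members in part: 7 of 17 measured arterial genes and 9 of 20 tip cell genes were lower, and 1 and 0 were higher. In the uninjured library 2 of 5 arterial genes were higher and 2 lower, and 0 of 5 tip cell genes were higher and 1 lower. Summed, the arterial list stood higher in members, at 4276 against 2368 CPM in the injured and 7440 against 2835 CPM in the uninjured library. Cldn5, the tight junction claudin, was detected in 15 of 99 injured members and 84 of 123 low cells, at 73.3 and 356 CPM, which was 4.86-fold lower (3.65 to 6.60) in members and 8.24-fold lower against marker-free low cells. Its log2 ratio was -2.28, and -4.02 with cells thinned. Uninjured members and low cells had it at 107 and 445 CPM, 4.16-fold lower (2.03 to 9.38). Gja4, the arterial connexin 37, had 3 UMIs in injured members and 118 in low cells, an inverse ratio of 15.7 with an interval of 5.25 to 77.3, and of 46.1 against marker-free low cells.

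Gpihbp1, which anchors lipoprotein lipase in capillaries, was at 181 and 469 CPM and 2.59-fold lower (2.15 to 3.15). Apln, the apelin ligand made by endothelial tip cells, was at 27.3 and 137 CPM and 5.03-fold lower (3.15 to 8.49), or 3.23-fold against marker-free low cells. The arterial list had a median log2 ratio of -0.40, and against marker-free low cells 0 of 14 of its genes were higher and 8 lower, with a median of -1.09. For the tip cell list 0 of 18 genes were then higher and 4 lower. The capillary list had 2 higher and 3 lower genes of 11 measured.

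General endothelial genes were also higher in part of the list, with 7 of 19 higher and 1 lower. Ptprb, Tek, Flt1 and Eng, at 3.28, 2.89, 2.29 and 2.17, were no longer counted as higher against marker-free low cells, where they stood at 1.61, 1.63, 1.23 and 1.47. Slco2a1, the prostaglandin transporter, was at 398 CPM in 84 of 99 injured members and 88.4 CPM in low cells, a ratio of 4.50 that was 2.64 against marker-free low cells and 7.12 in the uninjured library. Tm4sf1, a membrane protein of endothelial projections, had a ratio of 2.74 in the injured and 4.03 in the uninjured library, and 1.55 against marker-free low cells.

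**Figure D3:**
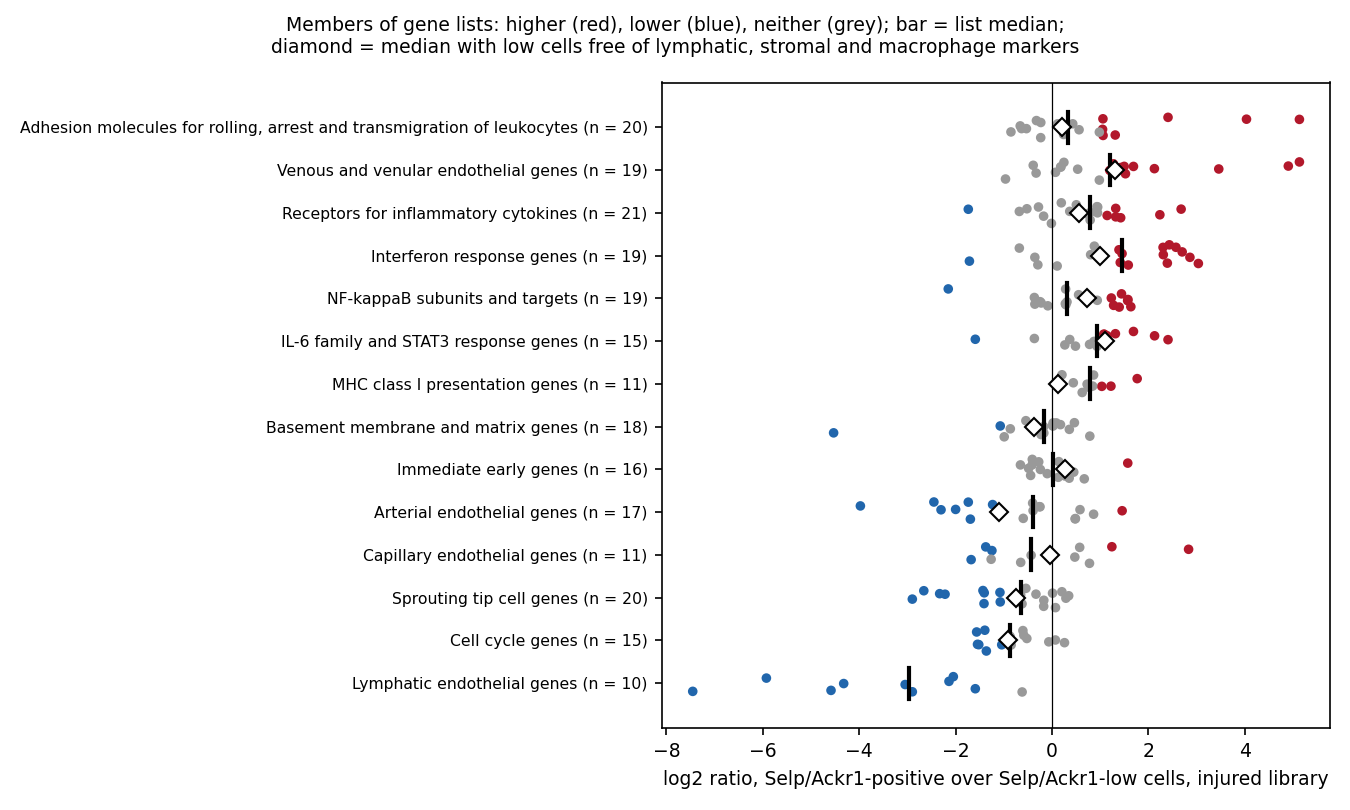
Log2 ratio of members to low cells in the injured library for each measured gene of 14 role lists; red points are counted as higher, blue as lower and grey as neither, the bar is the list's median and the diamond its median against marker-free low cells. The venous median is 1.20, the interferon median 1.45, the arterial median -0.40 and the tip cell median -0.63, beside -0.18 over all genes.

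Cytokines and chemokines were unevenly spread. Csf3, the granulocyte growth factor G-CSF, ran from 0 through 216 to 7341 CPM per injured member and was at 553 CPM (499 to 612) in 56 members and 43.6 CPM in 17 low cells, a ratio of 12.7 (9.89 to 16.4). The ratio was 24.4 (12.7 to 53.8) against marker-free low cells. Uninjured cells had it at 599 CPM in 12 of 22 members with no UMI in low cells, which is at least 16.6-fold higher with a floor of 3 UMIs over the group, a log2 ratio of at least 4.05, or 3.25 against the marker-free ones and 2.77 with cells thinned. Members held 5.7% of the Csf3 UMIs of the injured library and 13.6% of those of the uninjured library, so most came from other cells.

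Il6, the interleukin that drives acute-phase responses through Il6st, was at 167 CPM (138 to 200) in 46 injured members and 17.8 CPM in 19 low cells, a ratio of 9.37 (6.26 to 14.4). Among uninjured members it ran from 0 through 382 to 6522 CPM and was at 941 CPM (754 to 1159) in 15 of 22 cells, with 1 UMI in the low cells and an interval of the ratio of 13.7 to 3127. Cxcl10, the interferon-induced ligand of Cxcr3 on T cells, was at 1071 CPM in 49 injured members and 91.9 CPM in 17 low cells. The ratio was 11.7 (9.81 to 13.9), and 9.90 without the member with the most Cxcl10 UMIs and 7.34 against marker-free low cells; single members reached 22013 CPM. Among uninjured cells it was at 406 CPM in 9 of 22 members with no UMI in low cells, at least 11.3-fold higher. The value was 6.23 without the member with the most Cxcl10 UMIs. As a log2 ratio it was 3.49, and 2.67 without cells that carry markers of mural or blood cells.

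The upstream sequences of Il6 and Cxcl10 are shown because both genes stand among the most unequal between members and low cells, and because Il6 holds a match to a motif of NF-kappaB and Cxcl10 one to a motif of interferon response. Each is the 250 bases before the gene's start in RefSeq (GRCm38.p6), written 5′ to 3′ along the gene: Il6 at chr5:30012864-30013113 on the plus strand and Cxcl10 at chr5:92348890-92349139 on the minus strand. Capitals mark the match to the searched string only. Other forms of either motif were not searched, so lower-case letters do not show that a sequence lacks a site.
Il6: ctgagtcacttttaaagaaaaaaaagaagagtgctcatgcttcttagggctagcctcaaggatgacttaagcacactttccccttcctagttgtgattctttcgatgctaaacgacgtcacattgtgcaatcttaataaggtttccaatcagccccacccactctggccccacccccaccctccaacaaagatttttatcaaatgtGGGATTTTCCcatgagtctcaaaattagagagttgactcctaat
Cxcl10: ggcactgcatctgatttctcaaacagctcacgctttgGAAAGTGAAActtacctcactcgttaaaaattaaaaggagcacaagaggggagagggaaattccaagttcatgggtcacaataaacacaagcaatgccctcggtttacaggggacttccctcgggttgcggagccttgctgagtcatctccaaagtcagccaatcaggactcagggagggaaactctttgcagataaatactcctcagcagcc
The match in Il6, GGGATTTTCC, is to GGG followed by any 2 bases and TTTCC, and starts 44 bases before the gene's start, and the match in Cxcl10, GAAAGTGAAA, is to GAAA followed by any 2 bases and GAAA, and starts 213 bases before it. Both motifs were searched on both strands, and they do not overlap in these sequences. Among 32851 mouse promoters of 250 bases before to 50 after the start, 1.63% hold the first and 3.44% the second. Of the other promoters looked up, that of Neurl3 held a match to the first motif. Those of Selp, Ackr1, Sele, Icam1, Ifi47, Bmp4 and Mctp1 held a match to neither string. Other forms of these motifs were not searched, and no group of genes that were not higher in members was compared. Whether the motifs go with the genes higher in members was therefore not tested. A match is a description of the letters only, and binding of a factor was not measured.

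Of the other chemokines, Cxcl9 had a ratio of 14.5 (5.56 to 48.0) in 6 injured members and Cxcl16, a membrane-bound ligand of Cxcr6, of 2.57. Marker-free low cells gave 5.52 for Cxcl9 and 1.41, not counted, for Cxcl16. Cxcl1, a neutrophil attractant, was at 413 and 200 CPM, a ratio of 2.06 (1.75 to 2.41) that was 8.63 against marker-free low cells. Against low cells with no Selp or Ackr1 UMI its log2 ratio was 0.80, under the limit. Cxcl2 was at 102 and 173 CPM and was not counted, yet was 13.5-fold higher than in marker-free low cells. Its UMIs lay in few injured members: 66 UMIs in 8 cells with 10 or more UMIs of Selp plus Ackr1, and 5 in 3 others. Between injured and uninjured members its log2 ratio was 1.67, and 0.65 without members that carry markers of mural or blood cells. The part of such cells in the Cxcl2 ratio to marker-free low cells was not tested. The monocyte attractants were lower in members: Ccl2, at 46.0 and 309 CPM, was 6.72-fold lower (4.70 to 9.92) and Ccl7 19.8-fold lower (6.66 to 97.3). Of 16 chemokines 12 were measured, 4 higher and 6 lower with a median log2 ratio of -1.75, and against marker-free low cells 4 of 7 were higher and 2 lower with a median of 2.46. This list's median thus had opposite signs with and without the low cells that carry markers of other types.

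Of 24 cytokine receptor genes, 21 were measured in the injured library, with 6 higher and 1 lower in members, among them receptors of the interleukin-6 family and of colony-stimulating factors. Lifr, the receptor of leukemia inhibitory factor, was at 151 and 23.5 CPM, a ratio of 6.41 (4.43 to 9.44) and of 3.53 against marker-free low cells. Csf2rb, the common beta chain for GM-CSF, IL-3 and IL-5, had a ratio of 4.72 (3.24 to 6.97), and of 2.63 against marker-free low cells. Il6st, the shared signalling chain gp130, was at 667 and 301 CPM, a ratio of 2.21 (1.95 to 2.51), and 4.08 against marker-free low cells. Among uninjured cells 4 of 6 receptor genes were higher and 0 lower: Osmr, the oncostatin M receptor, at 4.30, Tnfrsf1a, a TNF receptor, at 4.004, Il6st at 3.13 and Csf2rb2 at 2.82.

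Of 15 STAT3-associated genes, 7 were higher and 1 lower in injured members, and 6 of 11 were higher and 0 lower in uninjured members. Cebpd, a transcription factor of the acute phase, was at 847 and 194 CPM in the injured library, a ratio of 4.37 (3.82 to 5.02), and had a ratio of 3.14 in the uninjured library. Nfkbia, the inhibitor of NF-kappaB and itself its target, was at 1679 and 617 CPM, a ratio of 2.72 (2.50 to 2.96), and had a ratio of 3.57 in the uninjured library. Socs3, the feedback inhibitor of gp130 signalling, had a ratio of 2.49, which was 1.81 and not counted against marker-free low cells. Of 20 NF-kappaB genes 19 were measured, 7 higher and 1 lower, among them Nfkbiz at 3.11, Traf1 at 2.98, Tnfaip3, a brake on NF-kappaB, at 2.97 and Irf1, an interferon-regulatory factor, at 2.35. Marker-free low cells gave 5.00 for Tnfaip3, and Traf1 at 1.77 and Irf1 at 1.37 were then not counted.

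Interferon-inducible genes were higher in injured members for 12 of 19 measured genes of a list of 21, with 1 lower and a median log2 ratio of 1.45. The comparison with marker-free low cells had 8 of 18 higher and 1 lower, with a median of 1.00. Iigp1, an immunity-related GTPase, ran from 0 through 1190 to 5538 CPM per injured member and was at 1292 and 157 CPM, a ratio of 8.21 (7.17 to 9.44) and of 3.98 against marker-free low cells. Uninjured members and low cells had it at 2063 and 817 CPM, a ratio of 2.53. The guanylate-binding proteins Gbp2 and Gbp4 had ratios of 5.95 and 5.41, and the GTPases Ifi47 and Irgm1 of 7.27 and 4.96, in the injured library. Against marker-free low cells these 4 were at 3.02, 2.01, 3.54 and 3.17. Among uninjured cells 3 of 10 measured interferon genes were higher and 0 lower (Iigp1, Ifi47 and Irgm1).

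The largest ratios outside the lists, by a rule fixed on level and number of cells, included Mctp1, a calcium-sensing membrane protein, at 14.5 (8.34 to 27.0), Rnd1, a small GTPase that loosens the actin cytoskeleton, at 9.54 (6.75 to 13.7), Neurl3, a ubiquitin ligase, at 8.58, and Bmp4, the morphogen, at 8.13 (5.56 to 12.2). These ratios against marker-free low cells were 4.52, 4.81, 4.03 and 3.93. Rnd1 had a ratio of 6.82 in the uninjured library and Bmp4 of 1.71, not counted. The genes lowest in members were lymphatic or stromal for the most part: Ccl21a with no UMI against 755 CPM in low cells (at least 175-fold lower), Lyve1 with none against 262 CPM (at least 60.7-fold lower), Col1a2 64.3-fold and Dcn 40.5-fold lower. Against marker-free low cells Col1a2 and Lum were not counted, and Dcn, Col1a1 and Igfbp2 had log2 ratios above 0. Only the low cells were filtered on stromal markers, so these changes in stromal genes are partly built into that comparison.

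The named genes of the uninjured library included, besides Sele, Il6, Csf3 and Cxcl10, Rcan1, the calcineurin regulator, at 18.8 (8.42 to 52.3), Bcr at 9.34, Adamts4, a proteoglycan-cleaving protease, at 8.81, and Cd74, the invariant chain of MHC class II, with 31 UMIs against 0 (at least 9.19-fold higher). Their log2 ratios were 3.22 for Bcr, 3.14 for Adamts4 and 3.20 for Cd74, and 2.42, 2.34 and 2.40 against marker-free low cells, while Cd74 was at 1.27 with a threshold of 5 UMIs. The genes lowest there were collagens and proteoglycans such as Dcn, Lum, Kera and Col1a1, the markers of the 6 uninjured low cells with at least 3 stromal markers.

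Ackr1 divided the members. In the injured library the 62 members with an Ackr1 UMI had a median of 4672 UMIs and the 37 without one 8516, so the cells without Ackr1 were the deeper ones. Vwf was at 861 CPM with Ackr1 and 88.5 CPM without, Csf3 at 1038 and 134 CPM, Il6 at 322 and 32.2 CPM, Lrg1 at 1236 and 384 CPM and Sele at 901 and 386 CPM. Cldn5 was at 18.6 and 121 CPM and Col4a1, a chain of basement membrane collagen IV, at 1047 and 2714 CPM, so both stood lower in the cells with Ackr1. With 14 and 8 uninjured cells, the order was the same for Vwf (915 and 464 CPM), Sele (2827 and 1082 CPM), Il6 (1291 and 278 CPM) and Csf3 (752 and 309 CPM). Since Ackr1 belongs to the rule, these values are a description of how the members vary.

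**Figure D4:**
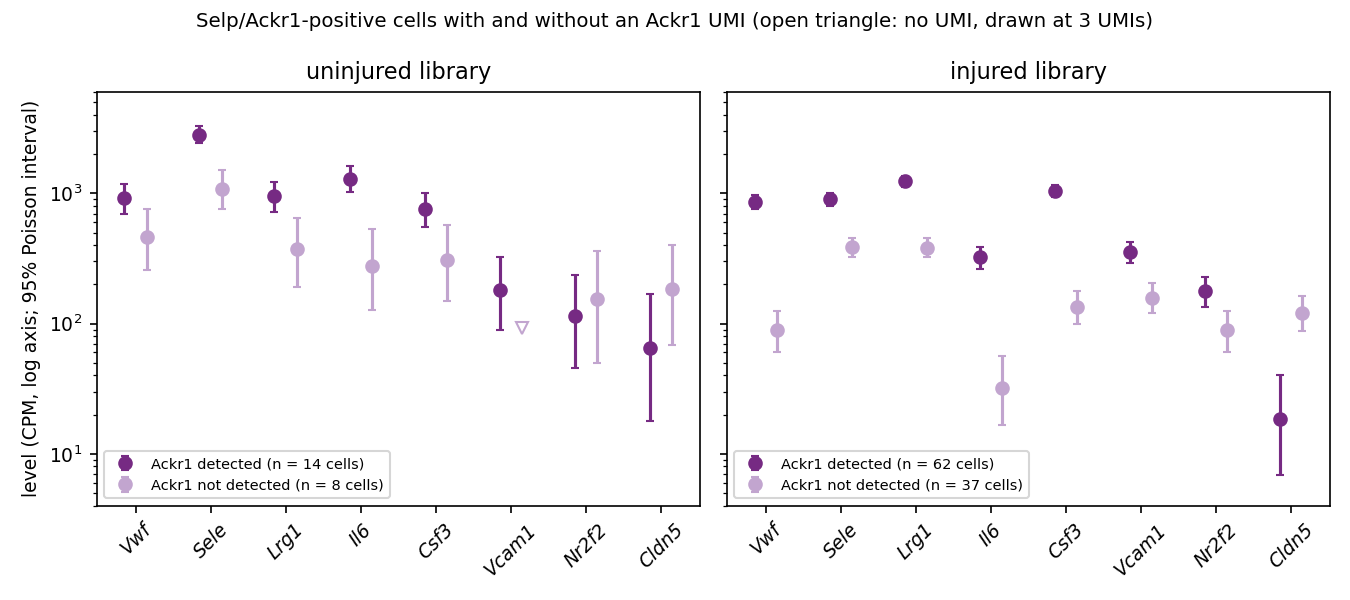
Summed CPM with 95% Poisson intervals of 8 genes in members with and without an Ackr1 UMI, for the uninjured (14 and 8 cells) and injured (62 and 37 cells) libraries. Vwf, Csf3 and Il6 are higher in cells with Ackr1, at 861, 1038 and 322 CPM in the injured library, and Cldn5 is lower, at 18.6 CPM.

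Across the 92 injured members with at least 2000 UMIs, Selp and Sele had a Spearman correlation of 0.78 and Ackr1 and Vwf of 0.67, while Selp and Icam1 had 0.15. Across 20 uninjured members the values were 0.62, 0.35 and -0.11. The cells share a library, and these are descriptions with no test. The 66 injured members with 10 or more UMIs of Selp plus Ackr1 had Sele at 962 CPM, and the 33 with 3 to 9 had 134 CPM.

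The injured and uninjured members were then compared. Of 4649 genes measured, 209 (4.5%) were higher and 297 (6.39%) lower in injured members, so that 41.3% of the counted genes were higher. Scaling by the median of gene ratios shifted all log2 ratios by 0.17 and turned this share to 60.3%, so the split between directions depends on the scaling. Values from low cells of the same libraries stand beside those of members; of their 7890 measured genes 3.66% were higher and 6.39% lower in the injured library.

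Of 17 measured matrix and basement membrane genes 5 were higher and 1 lower in injured members, with a median log2 ratio of 0.50, and of 18 in low cells 8 were higher and 1 lower. Col4a1 ran from 0 through 918 to 6489 CPM per injured and from 0 through 232 to 1208 CPM per uninjured member. It was at 1940 and 310 CPM, a ratio of 6.26 (4.34 to 9.38), and of 3.64 (2.70 to 5.02) in low cells. Col4a2, its partner chain, was at 936 and 160 CPM, a ratio of 5.84 (3.51 to 10.5), and of 2.25 in low cells. Sparc, a collagen-binding protein, was at 2803 and 887 CPM, a ratio of 3.16 (2.54 to 3.98), and of 0.911 in low cells. The low cells differed in stromal content between the libraries: the stromal gene Dcn was at 2678 CPM in injured and 17457 CPM in uninjured low cells. The part of this in the low-cell ratios of matrix genes was not tested. The differences between member and low-cell ratios were not tested either.

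Sox4, a transcription factor of growing tissue, was at 509 against 53.5 CPM, a ratio of 9.52 (4.04 to 29.5). Thinned, its log2 ratio of 3.25 was 2.57. Fabp4, the fatty acid carrier of small vessels, had a ratio of 2.39 (1.76 to 3.33), Il1r1 of 2.74 (1.14 to 8.63) and Vcam1 of 2.11 (1.15 to 4.32), and the last had a log2 ratio of 0.99, under the limit, with a threshold of 5 UMIs. Il1r1 was under the limit when cells were thinned, at a log2 ratio of 0.97. Cxcl10 had a ratio of 2.64 (1.90 to 3.75). Of 15 measured tip cell genes 6 were higher and 1 lower, and of 20 in low cells 10 were higher and 2 lower.

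Of 14 measured cell cycle genes 4 were higher and 0 lower in injured members, and histone transcripts led the named genes. Hist1h2ap had 496 UMIs in 20 injured members and 1 UMI in uninjured members, an interval of 11.9 to 2639, and Hist1h1b had 190 in 9 cells against 0, at least 8.52-fold higher. Thinned, their log2 ratios of 4.47 and 3.09, set against a floor of 3 UMIs, were 2.26 and 1.17. With cells thinned to 2000 UMIs, at least 2 cell cycle genes were detected in 22 of 92 injured members (23.9%, 15.6 to 33.9) and 4 of 20 uninjured members, whereas in low cells they were detected in 53 of 115 (46.1%, 36.8 to 55.6) and 1 of 17. Without thinning the member shares were 41 of 99 (41.4%) and 6 of 22. The injured members thus held a smaller share of such cells than the injured low cells, which are a mixture. These intervals cover counting error within 1 library only. The share among marker-free low cells was not determined, so the part of stromal or lymphatic cells in this difference was not tested.

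Sele and Il6 were lower in injured members. Sele, at 625 against 2224 CPM, was 3.56-fold lower (3.0001 to 4.205) and Il6 5.64-fold lower (4.23 to 7.51). The log2 ratio of Il6 was -2.50, and -1.51 without the 2 uninjured and 4 injured members that carry markers of mural or blood cells. Selp and Ackr1, the rule's own genes, stood 2.33-fold and 2.39-fold lower, which is a description and not a result. Deeper cells reach the rule's 3 UMIs at a lower CPM, and injured members were deeper (median 5396 against 3594 UMIs). Icam1 (log2 ratio -0.84), Vwf (-0.76), Csf3 (-0.11) and Lrg1 (0.06) were not counted.

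Immediate-early transcription factors, which respond within minutes to stimulation and to tissue dissociation, were lower in injured members for 12 of 15 measured genes with 0 higher, and in low cells for 10 of 16. Nr4a1 was 6.22-fold lower (4.01 to 9.62), Egr1 2.92-fold and Fos 2.74-fold lower. Socs3 was 3.06-fold lower (2.35 to 3.95) and Nfkbia, at 1679 against 3859 CPM, 2.30-fold lower (2.04 to 2.59). Of 14 STAT3 genes 0 were higher and 6 lower in injured members. Whether dissociation entered the levels of Il6, Sele and these genes in the uninjured library was not tested.

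Of 13 measured genes of TGF-beta and BMP signalling 0 were higher and 4 lower. Id1, the helix-loop-helix target of BMP receptors, was at 378 against 1614 CPM, 4.27-fold lower (3.47 to 5.24) and 4.47-fold lower in low cells. Id3 was 3.55-fold and Smad7, the inhibitory SMAD, 4.55-fold lower. Klf2, the flow-induced transcription factor, was 2.18-fold and Thbd, the anticoagulant thrombomodulin, 2.84-fold lower. Cd74 was 17.7-fold lower (9.02 to 36.9) and Adamts4 8.46-fold lower (6.28 to 11.4). Corneal epithelial genes such as Krt12, Aldh3a1, Slurp1 and Aqp5 were also lower in injured members, and in the uninjured members each stood below its level over that whole library, so their part as free RNA was not tested.

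**Figure D5:**
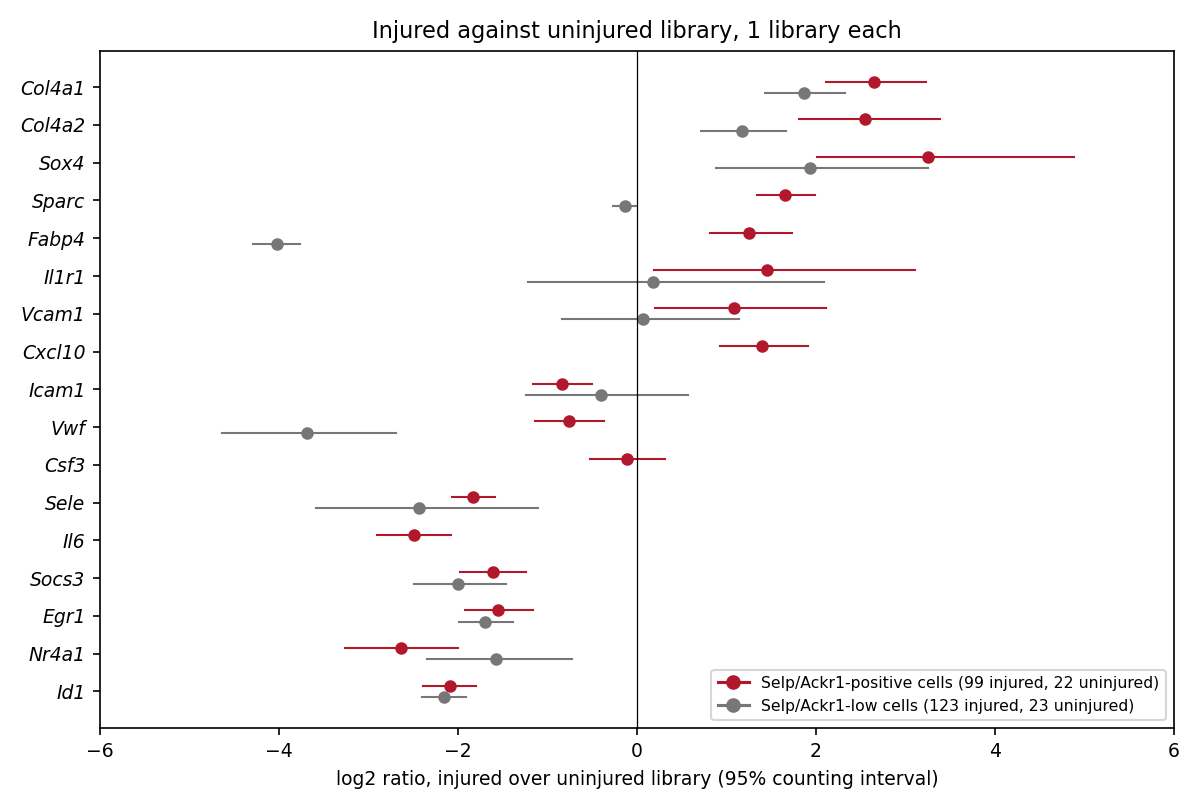
Log2 ratio of the injured to the uninjured library, with 95% counting intervals, for 17 genes in members (red) and low cells (grey); a gene with under 3 UMIs in a group is not drawn for those cells. In members Col4a1 and Sox4 are higher (ratios of 6.26 and 9.52), and Sele, Il6, Nr4a1 and Id1 are lower in the injured library.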

How the data were processed

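Droplet libraries of 2 samples were deposited by the authors as UMI counts per gene and barcode; the counting tool was Cell Ranger 7.0.1 per the file headers, and the build GRCm38 per the submitters' processing notes. Filters beyond barcode calling are not stated there. From these counts, UMIs were summed per gene over the cells of a group, and CPM is that sum per 1000000 UMIs of the group. Ratios have exact binomial 95% intervals, levels exact Poisson intervals and shares Clopper-Pearson intervals. A count under 3 was set to 3 for a ratio. Named genes were the 12 largest ratios in each direction with at least 100 CPM in 1 group and 5 cells with a UMI, still at least 2 without the highest cell, leaving out genes of mitochondria, ribosomes, hemoglobin and sex chromosomes and predicted genes, plus list members at 50 CPM or of a described role; 1 gene is not reported here. The members and gene lists were chosen with earlier results of these data known. Doublets were kept in, since Scrublet's own threshold marked 32 (0.447%) and 2 (0.0222%) cells; removing the highest scores was an alternative. Other alternatives were stricter cell filters, thresholds of 5 UMIs or 300 CPM, low cells with no Selp or Ackr1 UMI, thinning to 2000 UMIs, equal weights, median scaling and no filter on counts. Low cells without other markers were added after seeing the data. The ratios were tested on simulated data. Promoters came from RefSeq (GRCm38.p6), with an entry for 10 of 16 genes looked up. Tools were Python 3.11.15, numpy 2.4.6, scipy 1.17.1, pandas 2.3.3, scanpy 1.11.5 and matplotlib 3.10.9.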

Additional observations from a re-analysis of the deposited data

Results flagged for a closer look

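Fabp4 pointed in opposite directions in the 2 libraries. Its log2 ratio of members to low cells was 2.84 in the injured library (1098 against 154 CPM) and -2.45 in the uninjured library (460 against 2511 CPM). The 209 Fabp4 UMIs of the uninjured low cells lay in 4 of 23 cells. With marker-free low cells the log2 ratios were 1.62 and -3.25. The difference between the libraries was not tested.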

How the results depend on the processing

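No paired analysis was possible because each condition has 1 library, and for the same reason no replicate could be left out. The share of injured endothelial cells that are members was 63.9% without low cells that carry lymphatic, stromal or macrophage markers, with all members kept. In the injured library thinning to 2000 UMIs left 225 genes higher and 235 lower in members, and marker-free low cells gave 218 lower, with 29 list members lower in place of 55. Among uninjured cells thinning gave 68 higher and 49 lower, marker-free low cells 81 and 64, and no filter on counts 322 lower. Between injured and uninjured members thinning gave 68 higher and 129 lower, median scaling 334 higher, and no filter 472 lower. Against marker-free low cells the log2 ratios of Igfbp2, Dcn and Col1a1 turned to 0.28, 1.13 and 0.55, where only the low cells were filtered on stromal markers. Of 366 values of 34 named genes in the injured library, 350 kept their direction and side of the limit, 9 newly passed it, 4 no longer passed it and 3 turned. For the uninjured library 321 of 322 kept both, and between members 355 of 363 did, with 8 no longer past the limit. Depth limits the uninjured groups: 22 members held 93544 UMIs in all and 23 low cells 83234, against 695734 in 99 injured members, so a gene under about 3 UMIs there gives only a bound.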

Other observations

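Class I antigen presentation genes were higher in injured members than in low cells for 3 of 11 genes and lower for 0, with a median log2 ratio of 0.79, and against marker-free low cells for 1 with a median of 0.12. Coagulation genes went both ways, with 4 higher and 5 lower of 18 measured. Flow-responsive genes were higher for 3 of 10 measured and lower for 0, Notch pathway genes higher for 0 and lower for 2 of 10, and glycolysis genes higher for 1 and lower for 2 of 15. Over all genes measured between injured members and low cells 4.43% were higher and 9.66% lower. Counts as small as those of the Notch and glycolysis lists are no result about these lists. Flt4, the VEGF-C receptor, was 7.45-fold lower in injured members, and 2.23-fold lower, not counted, against marker-free low cells. Cd63, a tetraspanin that is also stored in Weibel-Palade bodies, was 2.73-fold lower in injured and 3.57-fold lower in uninjured members than in low cells. These low cells include 58 of 123 injured and 6 of 23 uninjured cells with at least 3 stromal markers. No ratio against marker-free low cells is given for Cd63, so the part of stromal cells in this difference was not tested.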
